A study of Mus musculus with 63 samples.

Results

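The transcriptome of the wildtype CA3 subfield was compared 3 days after an entorhinal cortex lesion (3 dp ECL) with that of non-lesioned control cultures. These are 5 of the 63 libraries of the series, taken by their titles: 2 control and 3 ECL libraries of wildtype CA3, which were all that the series held for these groups. The series also sequenced the dentate gyrus (DG) of the same cultures' strain, CA3 labelled Synpo-/- (lacking synaptopodin, an actin-binding protein of the spine apparatus), and RNA that was precipitated together with synaptopodin. The cultures were organotypic entorhino-hippocampal slices of C57BL/6J mice of either sex, prepared at postnatal day 3 to 5 and kept for at least 18 days in vitro, and each library held the polyadenylated RNA of 1 CA3 area cut from 1 culture with a scalpel. In lesioned cultures the path from the entorhinal cortex to the hippocampus was cut with a scalpel, in control cultures it was not, and both carried the intact Synpo gene. A whole CA3 area holds pyramidal cells, interneurons and glia, so that fewer cells of a type and less RNA per cell cannot be told apart in any value below.

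CA3 pyramidal neurons receive mossy fiber input from dentate granule cells and a direct input from the entorhinal cortex on their outer dendrites. Cutting the entorhinal axons removes the latter input while the cell bodies in CA3 are spared, and the terminals of the cut axons degenerate. Such partial denervation is known for microglial and astrocytic clearance of debris, for the recycling of lipid from degenerating terminals through apolipoproteins, and for sprouting and strengthening of the surviving synapses. The gene groups below follow these roles: cytoskeleton and lipid handling, energy supply and ion pumping, protein synthesis and turnover, vesicle traffic and transmitter release, glia, and receptors.

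The depth was 14208728 and 16843281 counts in the control libraries and 20712170, 28527195 and 34071797 counts in the ECL libraries. Summed CPM (counts relative to the library total) of the CA3 pyramidal cell markers were 1699 to 2032 in these libraries and those of the dentate granule cell markers 159 to 208, whereas the labelled DG libraries other than ECL replicate 5 had 713 to 951 and 979 to 1327. The library labelled wildtype DG ECL replicate 5 had 1991 and 157 CPM, which are the values of a CA3 library, and DG results are therefore given with and without it. The counts of Synpo did not differ in the direction of the label in the libraries labelled Synpo-/-, with a mean normalised count of 851 ± 104 (SD, n = 6) in control and 861 ± 76.0 (SD, n = 6) in ECL libraries against 546 ± 6.1 (SD, n = 2) in wildtype CA3 control libraries, each on the scale of its own comparison, so that the label could not be checked by this gene and any contrast with these libraries rests on the label. Both control libraries and ECL replicate 3 had the Xist counts of female tissue (3030 to 3453), and ECL replicates 1 and 2 those of male tissue (135 and 127). No control library was of male tissue, so that sex and lesion cannot be fully told apart. The short-against-long gene balance is the median log2 CPM of the shortest genes minus that of the longest. It was -1.70 and -1.58 in control and -1.54, -1.57 and -1.41 in ECL libraries. The headers of the count columns carried 1 word in both control libraries that no wildtype CA3 ECL library carried, and the same word stood in all 6 ECL and in no control library of CA3 labelled Synpo-/-. Whether it marks a separate handling was not tested, and it cannot be told apart from the lesion within either genotype of CA3 or from the difference between them, whereas no DG library carried it.

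After ECL, 294 genes rose and 12 fell in wildtype CA3. The group that rose was led by Pfn1 (profilin 1, which binds actin monomers), Apoe (apolipoprotein E, the main lipid carrier of the brain) and Bsg (basigin, the partner protein of lactate transporters), and the 12 that fell were led by a set of repeat-derived gene models that share sequence. These calls required an adjusted p under 0.05 in edgeR's quasi-likelihood test, adjusted by Benjamini-Hochberg over 22340 genes, and a mean normalised count over 300, which 8060 genes exceeded, so that 3.65% of these were called higher and 0.149% lower. The median log2 fold change of the genes called higher was 0.83 (0.55 to 1.91), and 67 of them exceeded 1. Across all 8060 genes the median was 0.17, and 6097 lay above 0. All 306 called genes had no overlap between the groups, and beside this 40.6% of the 8060 genes had all 3 ECL libraries above both controls and 7.1% had them below. ECL replicate 3, the deepest library, held the highest of the 3 ECL values for 243 of the 294 genes called higher and for 4420 of the 8060 genes.

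The number of calls depended on single libraries. It was 94 without control replicate 1, 473 without control replicate 2, 0 without ECL replicate 1, 2 without ECL replicate 2 and 136 without ECL replicate 3, by the same edgeR test. Without ECL replicate 1, 5352 genes still had an unadjusted p under 0.05, and the smallest adjusted p was 0.0596. Each of the 306 genes kept its direction in all 16 alternatives that refitted the data, and the median gene was called in 8 of them. These fits reuse the same libraries, and genes without overlap between the groups could hardly change direction. The kept direction is therefore no independent support.

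**Figure D1:**
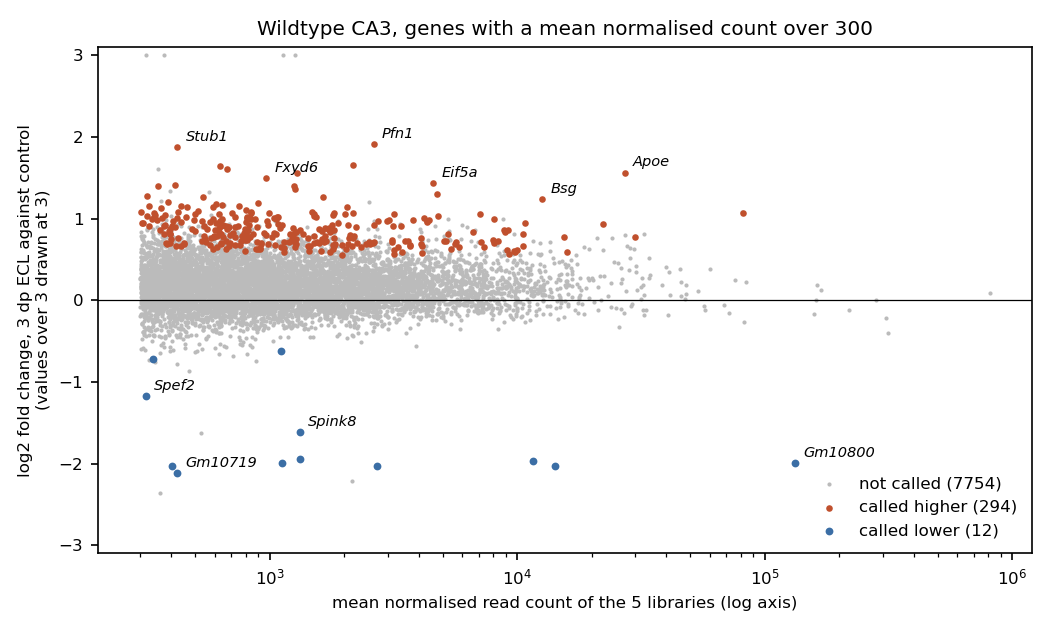
Log2 fold change of 3 dp ECL against control (vertical axis, values over 3 drawn at 3) against the mean normalised read count of the 5 wildtype CA3 libraries (horizontal log axis), 1 point a gene with a mean over 300. The 294 genes called higher lie between 0.55 and 1.91, and 8 of the 12 called lower form a group near -2.

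Pfn1 had normalised read counts of 1098 and 879.6 in the control libraries and of 3636, 3056 and 4471 in the ECL libraries. It had the largest rise of all called genes, with a log2 fold change of 1.91 ± 0.18 (SE, adjusted p = 0.0137, edgeR), and it was also the gene with the smallest p. Apoe had 13968 and 11044 normalised counts in control and 38474, 31309 and 41043 after ECL, a log2 fold change of 1.56 ± 0.16 (SE, adjusted p = 0.0137, edgeR). Bsg was steady within the groups, at 6926 and 6985 in control and at 15408, 15467 and 18386 after ECL (log2 fold change 1.24 ± 0.13, SE). For all 3 genes every ECL library stood above both controls by more than the spread within either group. Pfn1 lies on chr11:70651850-70654644, Apoe on chr7:19696109-19699188 and Bsg on chr10:79704491-79711969 of GRCm38.

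The 250 bases before the RefSeq start of 3 of these leading genes are given from RefSeq (GRCm38.p6), read 5′ to 3′ along the gene, because these genes were among the first in the list of rises. Capitals mark GC boxes (GGGCGG on either strand), and 14 motifs were searched.
Pfn1, minus strand, chr11:70654651-70654900: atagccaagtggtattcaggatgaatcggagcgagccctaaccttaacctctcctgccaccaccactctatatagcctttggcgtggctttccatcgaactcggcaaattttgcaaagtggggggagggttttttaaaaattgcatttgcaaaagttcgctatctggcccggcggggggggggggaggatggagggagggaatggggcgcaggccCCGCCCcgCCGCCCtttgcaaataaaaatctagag
Apoe, minus strand, chr7:19699189-19699438: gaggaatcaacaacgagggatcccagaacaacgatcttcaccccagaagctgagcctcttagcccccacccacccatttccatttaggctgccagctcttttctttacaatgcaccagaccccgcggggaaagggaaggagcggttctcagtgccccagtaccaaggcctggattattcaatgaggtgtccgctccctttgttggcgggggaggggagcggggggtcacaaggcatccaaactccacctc
Eif5a, minus strand, chr11:69921959-69922208: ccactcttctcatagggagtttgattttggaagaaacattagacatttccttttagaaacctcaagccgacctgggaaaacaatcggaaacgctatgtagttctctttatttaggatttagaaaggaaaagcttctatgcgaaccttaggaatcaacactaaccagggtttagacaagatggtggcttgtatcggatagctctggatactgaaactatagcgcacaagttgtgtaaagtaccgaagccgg
The stretch of Pfn1 held 2 GC boxes and no other searched motif, and those of Apoe and Eif5a held none of the 14. RefSeq promoter windows of 300 bases were matched for 236 of the 294 genes called higher, and 75.4% of them held a GC box, against 66.8% of 6409 windows of genes over the limit and 42.4% of all 20976 windows. The ETS motif CCGGAAG was in 23.7%, 19.6% and 10.9% of the same windows, and the TATA box TATAAA in 8.05%, 6.87% and 13.4%. Median GC content was 61.3% in the windows of genes called higher and 61.7% in those of genes over the limit. A match of letters is a description and no site of binding.

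Among the other leading genes, Stub1 (a ubiquitin ligase that works with heat shock chaperones) had 187 and 139 normalised counts in control and 639, 479 and 673 after ECL, a log2 fold change of 1.88 ± 0.21 (SE). Lsm4, of a ring complex that binds RNA, had 319.8 and 233 in control and 833, 788 and 972 after ECL (1.65 ± 0.18, SE). Eif5a, a factor that keeps ribosomes moving through difficult peptide bonds, had 2188 and 2317 in control and 5109.8, 5872 and 7313 after ECL (1.44 ± 0.16, SE). In these 3 genes the lowest ECL library was above the highest control by more than the difference between the controls. Rhbdd2, a membrane protein related to rhomboid proteases, Hmgn1, a nucleosome-binding protein, and Vcpkmt, a methyltransferase, rose with log2 fold changes of 1.41, 1.39 and 1.21. Nnat, an imprinted gene of a small membrane protein, had 1799.8 and 2035 in control and 3670.3, 3828 and 3862 after ECL (0.98 ± 0.12, SE). Rps4l, with 429 and 416 in control and 864, 882 and 919 after ECL, is a processed pseudogene of a ribosomal protein gene, and its reads cannot be told apart with certainty from those of its parent. The adjusted p of these 8 genes was 0.0149 to 0.0165 (edgeR). Emc6, Cox5a and Tpgs1 were among the 8 largest rises (1.56, 1.65 and 1.61), but their control libraries differed, with 807 and 385, 1361 and 551, and 429 and 174 normalised counts.

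**Figure D2:**
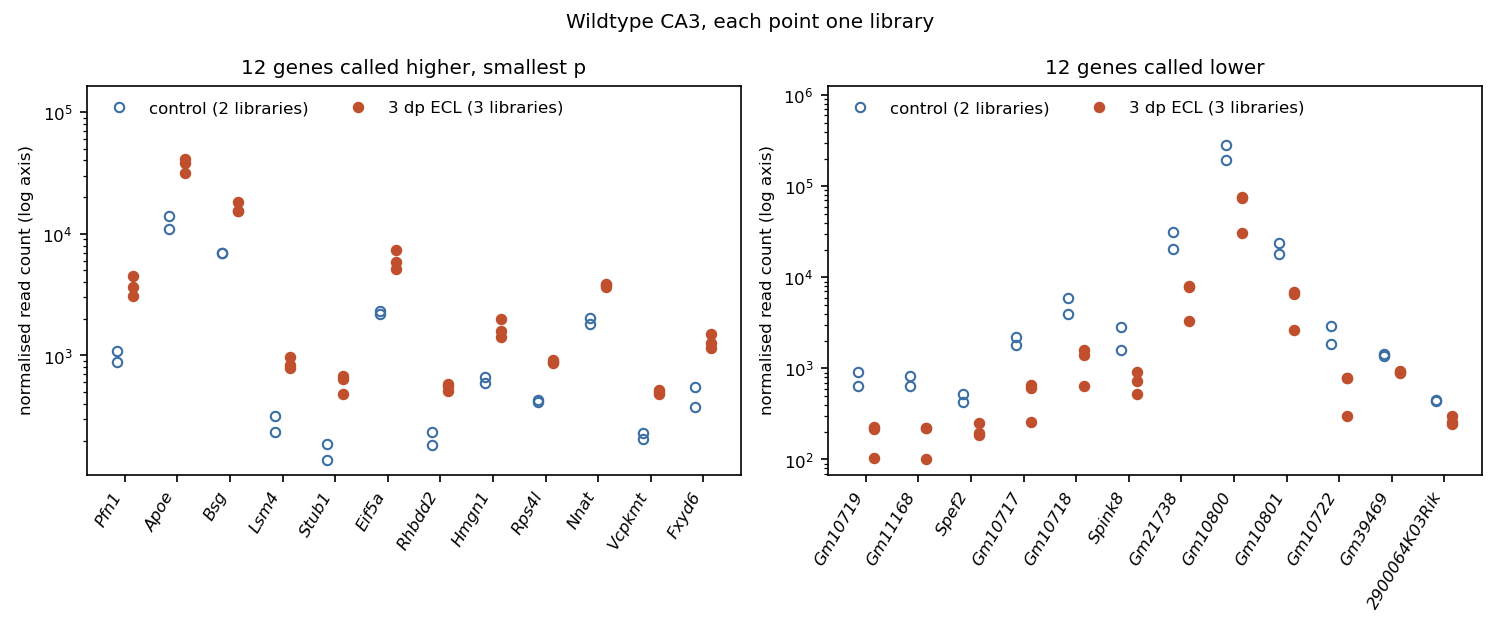
Normalised read counts (vertical log axis) of the 12 genes called higher with the smallest p (left) and of the 12 genes called lower (right), each point 1 library of wildtype CA3, open for the 2 controls and filled for the 3 ECL libraries. In every gene shown the filled points lie on one side of both open points.

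Gene lists were described by the number of measured members (those over the limit) that were called, beside the 3.65% called higher among all genes, and by the median log2 fold change, beside 0.17 for all genes. The lists were chosen with earlier results of these data known, so a share above 3.65% is a description and no test. Of 36 pathway lists, 28 had a called member, and of their 987 measured members 72 rose and 0 fell. With a trend of gene length removed (described further below), no member was called in the lists of mitochondrial ribosomal proteins, lysosomal enzymes, SNARE and fusion genes, axon growth and microtubule genes, respiratory chain genes, Arp2/3 subunits, postsynaptic scaffold genes or immediate early genes.

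In cytoskeleton and lipid lists the rises were few but included the strongest genes. Pfn1 was the 1 of 19 profilin, cofilin and actin monomer genes that was called, and 2 of 10 subunits of Arp2/3, the complex that branches actin filaments, rose (median 0.39). Of 26 axon growth and microtubule genes 4 rose, with a list median of 0.45. They were the tubulins Tubb2a (0.71 ± 0.14, SE), Tubb5 and Tuba1b and the growth cone protein Gap43, which had 3938 and 4215 normalised counts in control and 5615, 6280.1 and 6997 after ECL. Apoe was the 1 of 19 apolipoprotein and lipid transport genes that rose, and 0 of 16 cholesterol synthesis genes were called by edgeR or DESeq2 (4 at an unadjusted p under 0.05).

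Energy supply and ion pumping were represented by Bsg, glycolytic enzymes and Fxyd6. Of 26 basigin, lactate and glycolysis genes 5 rose (19.2%, median 0.46), namely Bsg and the glycolytic enzymes Pgam1, Eno1, Pkm and Tpi1. Eno1, enolase 1, had 13537 and 15379 normalised counts in control and 22268, 27228 and 33032 after ECL (0.93 ± 0.17, SE). Fxyd6, a small regulator of the sodium pump, had 377 and 549 in control and 1147, 1487 and 1273 after ECL (1.49 ± 0.18, SE), with ECL replicate 2 highest. Of 78 respiratory chain and ATP synthase genes only 3 were called, with a median of 0.16, close to that of all genes. The 8 measured mitochondrially encoded mRNAs had a median of -0.18 and no call by edgeR or DESeq2 (1 at an unadjusted p under 0.05), and the share of mitochondrial counts was 9.39% and 8.996% in control and 9.82%, 8.20% and 6.50% after ECL.

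In the lists of protein synthesis and turnover few members were called, while several list medians lay above the 0.17 of all genes. Of 53 translation factors 3 rose, Eif5a, Eif1 and Eif1b (median 0.33), and of 77 cytosolic ribosomal proteins 3 rose with a median of 0.08. The 45 proteasome genes had a median of 0.31. In edgeR 29 translation factors, 20 proteasome genes, 22 of 40 chaperones and 15 cytosolic ribosomal proteins had an unadjusted p under 0.05. Of all 8060 genes 2452 did. With the length trend removed the medians of translation factors and proteasome genes were 0.14 and 0.10, beside 0.05 for all genes. Mitochondrial ribosomal proteins had 8 of 75 called (10.7%, median 0.27), but 0 of 75 and a median of 0.06 with the length trend removed. Chaperones and cochaperones had 4 of 40 called (Stub1, Pdia3, Dnajb1 and Fkbp1a; median 0.36). Psmd5, which assists assembly of the proteasome's regulatory particle, was the 1 of 45 proteasome genes that was called, with 1293 and 1148 in control and 2185, 2329 and 3102 after ECL. Fth1, the ferritin heavy chain that stores iron, was among the most abundant genes that rose, from 57343 and 41135 to 94303, 98660.4 and 115906 normalised counts (1.06 ± 0.16, SE). Of 18 subunits of the V-ATPase, the proton pump of acid organelles, 3 rose (median 0.41), and of 36 lysosomal enzymes and cathepsins 4 rose (median 0.45), among them Ctsz and Hexa.

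Genes of vesicle traffic and transmitter release rose in small numbers in each list. Of 41 Rab GTPases 4 rose, Rab3a, Rab4a, Rab1b and Rab11b. Rab3a, the Rab of synaptic vesicles, had 2612 and 2419 in control and 5146, 6054 and 7452 after ECL (1.31 ± 0.16, SE, adjusted p = 0.0165, edgeR). Of 30 synaptic vesicle and active zone genes 4 rose: Rab3a again, Slc17a7 (the vesicular glutamate transporter VGLUT1), and the active zone proteins Erc1 and Unc13a. Slc17a7 had 873 and 907 in control and 1586, 1515 and 1327 after ECL (0.73 ± 0.13, SE), and Unc13a had 418 and 466 against 709, 678 and 669 (0.63 ± 0.13, SE). In Slc17a7, Erc1 and Unc13a ECL replicate 1 was highest, unlike most called genes. SNARE and fusion genes had 4 of 32 called (Vti1b, Stx1a, Sncb and Ykt6), and Stx1a, syntaxin 1A of the plasma membrane, had 281 and 279 in control and 485, 576 and 566 after ECL. Clathrin coat and endocytosis genes also had 4 of 32 called (Cltb, Clta, Ap1s1 and Ap2s1), where Cltb, a clathrin light chain, had 1326 and 1381 in control and 2332, 2491 and 2873 after ECL. Rheb, the GTPase that activates mTORC1, rose by a log2 fold change of 1.06 ± 0.15 (SE), and Tor1a, an ATPase of the nuclear envelope and endoplasmic reticulum, by 1.19 ± 0.16 (SE).

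Receptor and channel lists had medians at or below that of all genes. None of 16 glutamate receptor subunits (median 0.06), 11 GABA-A receptor subunits (0.14), 34 voltage-gated channel genes (0.05) or 17 protocadherin and cadherin genes (0.04) were called by edgeR, DESeq2 called 1, 0, 1 and 0 of them, and 2, 2, 4 and 5 had an unadjusted p under 0.05 in edgeR. Camk2a, the calcium-dependent kinase of the postsynaptic density, was the 1 of 27 postsynaptic scaffold and adhesion genes that rose, with 12869.7 and 11411 in control and 17023, 19023 and 18949.8 after ECL. Synpo had 549.9 and 541 in control and 725, 697 and 663 after ECL, all above the controls, but its log2 fold change of 0.35 ± 0.13 (SE) had an adjusted p of 0.139 (edgeR) and was not called. Of 12 CA3 pyramidal cell markers none was called by edgeR, 3 had an unadjusted p under 0.05 and 3 were called by DESeq2. Their median was 0.13, and 9 lay above 0. The summed normalised counts of the 16 tested markers were 35671 and 35861 in control and 40298, 44052 and 47545 after ECL. Most of this rise came from 1 gene, Nrip3, with 12461 and 14479 in control and 16252, 19703 and 23265 after ECL. Of 8 interneuron markers Cck, a neuropeptide gene, was called, with 489.6 and 479.9 in control and 1032, 829 and 881 after ECL.

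Glial and immune genes rose in part. Of 17 microglia markers 3 rose, C1qa, Olfml3 and Fcrls, and all 17 had a log2 fold change above 0 (median 0.46). C1qa, which starts the classical complement cascade, had 685 and 1144 in control and 1859, 1673 and 2189.6 after ECL (1.06 ± 0.21, SE). Cx3cr1, the fractalkine receptor of microglia, had 673 and 902 in control and 1008, 879 and 943 after ECL, so that the groups overlapped. The summed microglia markers were 23756 and 41413 in control and 47320, 42602 and 54637 after ECL, and their part in the rise of complement and lysosomal genes was not tested. Complement genes had the highest median of the pathway lists, 0.70, with C1qa and C3 called of 9 measured. Ccl12, a monocyte chemokine, had 1354 and 1572 in control and 2794, 2293 and 2527 after ECL (0.79 ± 0.13, SE). Of 15 reactive astrocyte genes S1pr3, a receptor for sphingosine 1-phosphate, rose (0.73 ± 0.13, SE, median of the list 0.29). Gfap, the astrocytic intermediate filament, had 18564 and 26265 in control and 32962, 37824 and 46752 after ECL, with a log2 fold change of 0.81 ± 0.18 (SE) and an adjusted p of 0.0575 (edgeR), which missed the threshold. None of 15 astrocyte and 12 oligodendrocyte markers were called by edgeR, DESeq2 called 3 and 0 of them, and 7 and 1 had an unadjusted p under 0.05 in edgeR.

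**Figure D3:**
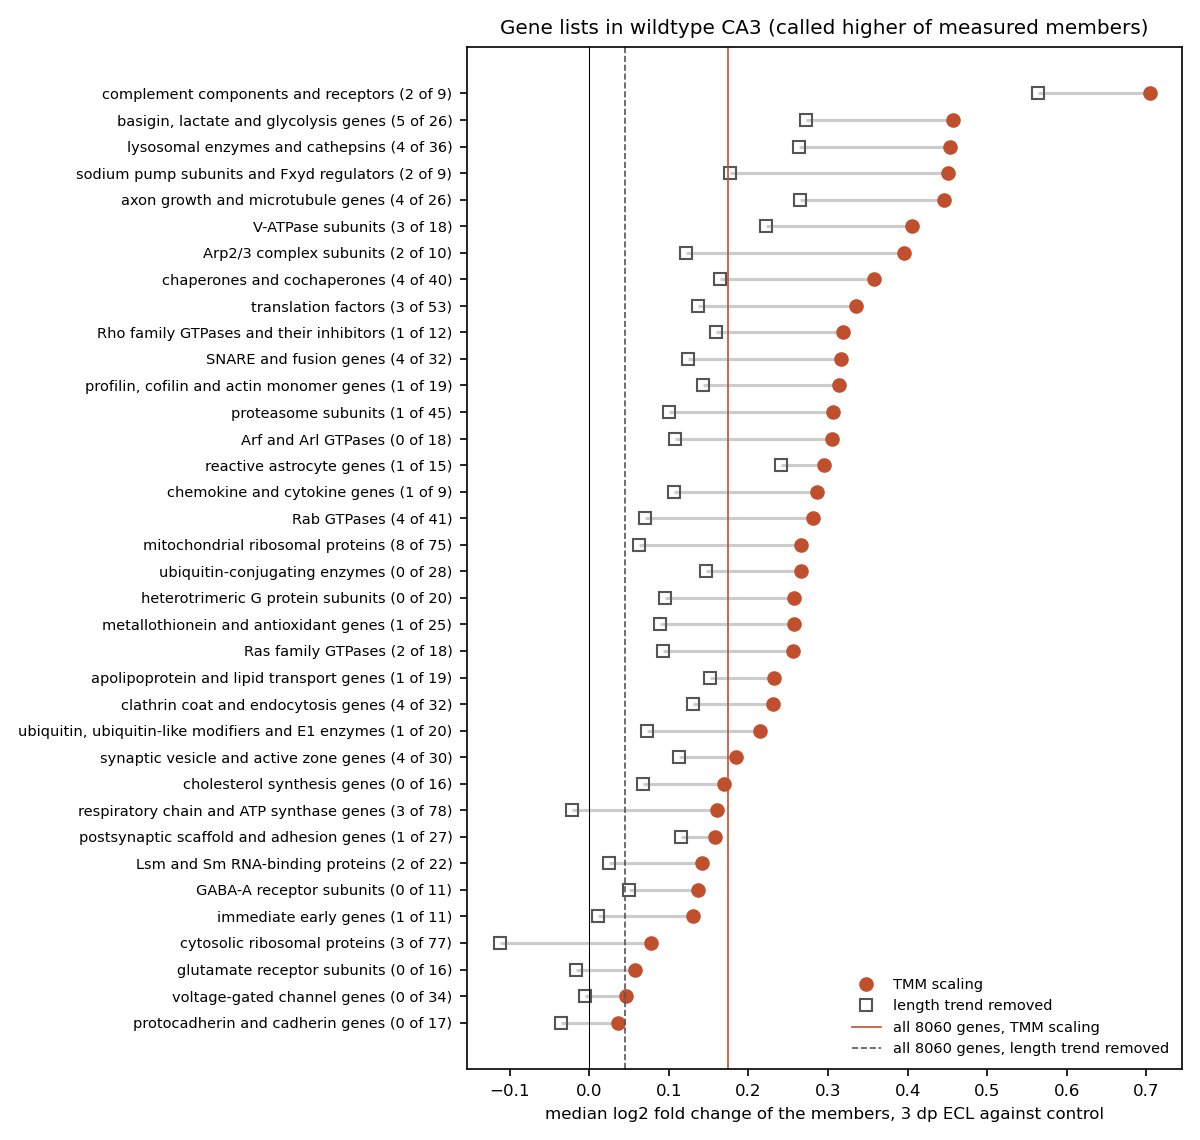
Median log2 fold change of the measured members of 36 pathway lists in wildtype CA3 (horizontal axis), filled for TMM scaling and open with the gene length trend removed, with the count called higher of those measured beside each name. Vertical lines mark the medians of all 8060 genes, 0.17 and 0.05; complement, glycolysis and lysosomal lists lie to the right of both, and the medians of glutamate receptors and voltage-gated channels near 0.

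The 12 genes that fell included 8 predicted gene models that share sequence. Gm10800, the most abundant, had 283314 and 196144 normalised counts in control and 74368, 75639.9 and 30537 after ECL, a log2 fold change of -1.99 ± 0.32 (SE, adjusted p = 0.0288, edgeR). It took 80.5% to 80.7% of the summed count of the 8 models in every library. The models lay on chromosomes 2, 9 and 14, each shared between 42.5% and 82.9% of its 31-base words with the others, and all fell between 3.86-fold and 4.33-fold. A stretch of 50 bases that all 8 hold is given from Gm10717 on the plus strand of the reference (RefSeq, GRCm38.p6). These 50 bases alone do not tell the models apart, whereas longer reads can reach beyond them.
Shared stretch, plus strand, chr9:3025876-3025925: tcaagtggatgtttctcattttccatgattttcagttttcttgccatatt
The 8 models took 1.76% and 1.15% of all counts in the control libraries and 0.424%, 0.417% and 0.162% after ECL. In other groups this share was 0.997% to 2.26% in DG control, 0.113% to 1.07% in DG ECL, 0.163% to 0.835% in control and 0.297% to 1.77% in ECL libraries of CA3 labelled Synpo-/-. In the DG all 8 models had a log2 fold change of -1.38 to -1.28, and 7 were called lower, with all 8 called lower without the library labelled ECL replicate 5. In CA3 labelled Synpo-/- the 8 lay in the opposite direction, at 0.74 to 0.83, and none was called. Reads of such repeats map to many copies, and these models are reported as uncertain.

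The other 4 genes that fell shared no 31-base word with these models. Spef2, a gene of sperm flagella and motile cilia, had 431 and 521 normalised counts in control and 194, 185 and 251 after ECL (-1.18 ± 0.18, SE, adjusted p = 0.027, edgeR). Spink8, a putative protease inhibitor, had 1601 and 2839 in control and 722, 529 and 918 after ECL (-1.62 ± 0.25, SE), so that the groups did not overlap although the controls differed. The transcripts Gm39469 and 2900064K03Rik fell by smaller steps, with log2 fold changes of -0.62 ± 0.11 and -0.73 ± 0.15 (SE).

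The genes called higher were short and rich in GC. Their median exon length was 2730.5 bases (quartiles 1935.5 and 4219.5), against 5074.5 for all genes over the limit, their median exon GC content was 53.5% against 47.1%, and 292 of the 294 were protein coding. With the genes cut into 10 groups of near equal size by exon length, 8.93% of the shortest and 0.496% of the longest were called higher, and with the same by GC content, 0.124% of the lowest and 11.7% of the highest. Across the 8060 genes, which share their libraries and are not independent, Spearman's rho with the log2 fold change was -0.32 for exon length and 0.42 for GC content. When a smooth trend with length was removed from each library, the median of all genes moved from 0.17 to 0.05, and 52 of the 294 genes called higher and 12 of the 12 called lower were called. With trends of length and GC removed 34 of the 294 were called. Removal turned the sign of the list medians of respiratory chain genes (0.16 to -0.02), cytosolic ribosomal proteins (0.08 to -0.11), glutamate receptors (0.06 to -0.02), voltage-gated channels (0.05 to -0.01) and cadherins (0.04 to -0.04).

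A total of 33 genes were called higher by edgeR, DESeq2 and limma voom and with either trend removed. They included Pfn1, Apoe, Bsg, Lsm4, Stub1, Eif5a, Rhbdd2, Hmgn1, Rps4l, Nnat, Vcpkmt, Fxyd6, Rab3a, Tor1a, Rheb, Cltb, Psmd5, Erc1 and Ccl12. A further 13 genes, named because of this outcome, were Ppp4c, Dgcr6, Mcrip1, Fbxo2, Rasl11a, A2m, Snx7, Fez2, Lars2, Cdc37, Sae1, Slc25a3 and Smim14. Lars2, the mitochondrial leucyl-tRNA synthetase, was high in the 2 shallower ECL libraries, with 5551 and 6405 in control and 11676, 11316 and 9438 after ECL. A2m, a protease inhibitor of the plasma and of glia, had 2045 and 2382 in control and 3889.9, 3917 and 4673 after ECL.

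**Figure D4:**
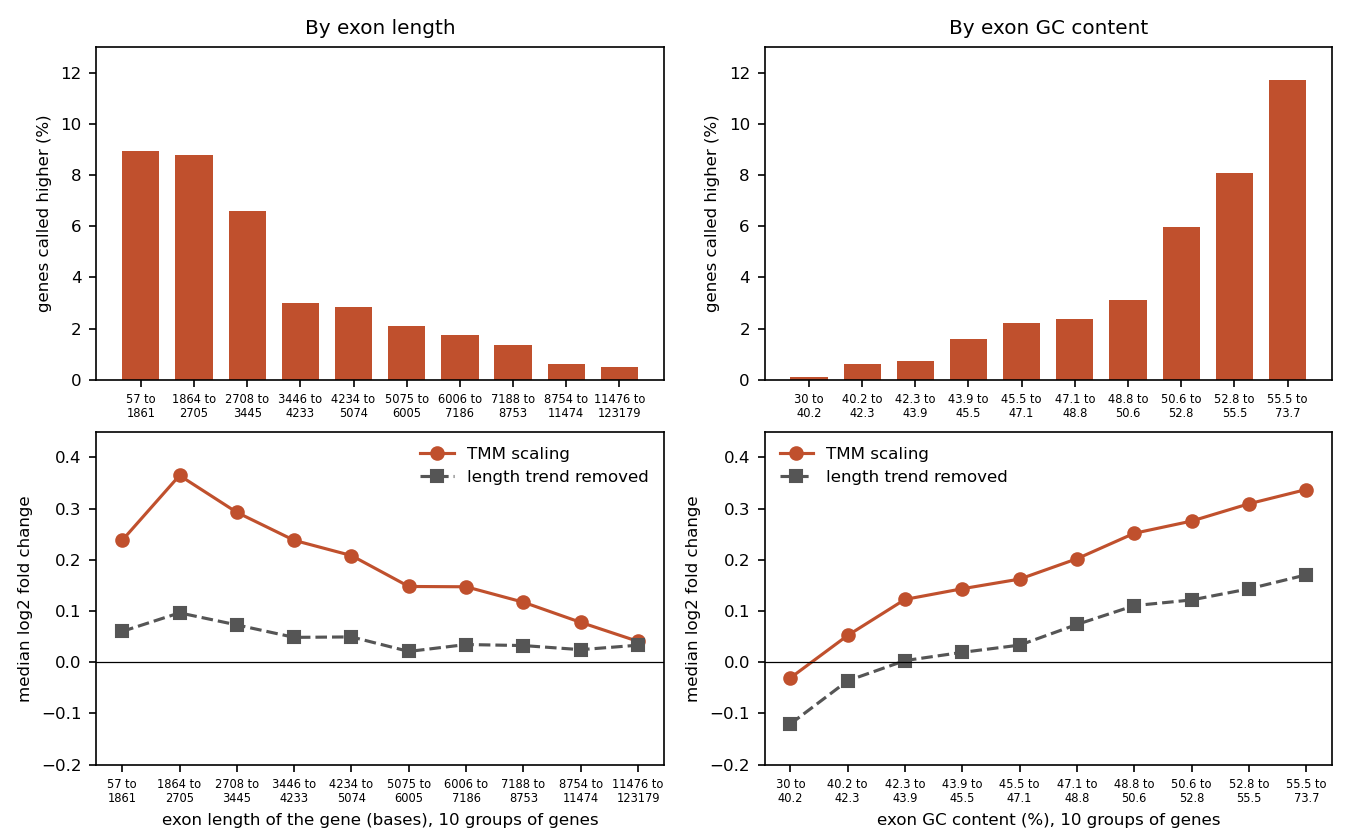
Share of genes called higher (top, percent) and median log2 fold change (bottom) in 10 near equal groups of the 8060 genes by exon length in bases (left) and exon GC content in percent (right). The share called falls from 8.93% to 0.496% with length and climbs to 11.7% with GC content, and the lines below show TMM scaling (solid) and the length trend removed (dashed).

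Whether these changes were particular to the wildtype CA3 was asked by setting them beside the same lesion in the wildtype DG (4 control and 7 ECL libraries) and in CA3 labelled Synpo-/- (6 and 6), which share no library with it. In the DG 1279 of 8500 genes were called higher (15%) and 120 lower (1.41%), and without the library labelled ECL replicate 5 1359 (16.5%) and 246 (2.98%) were. Of the 294 genes called higher in CA3, 82 were called higher in the DG (27.9% of the CA3 list, 6.41% of the DG list), 292 lay above 0 there, and their DG median was 0.50. Without the library labelled ECL replicate 5 these values were 85 genes (28.9% and 6.25%), 287 and 0.36. In CA3 labelled Synpo-/- 9 of 8229 genes were called (0.109%), and 2 of the 294 were among them, Ccl12 and A2m, with 169 of 294 above 0 and a median of 0.05. Across all 8060 genes these medians were 0.21 in the DG, 0.13 without that DG library and -0.02 in CA3 labelled Synpo-/-. The counts above 0 stand without such a share of all genes. The short-against-long balance was -1.84 to -1.66 in DG control and -1.68 to -1.46 in DG ECL libraries, and its part in these values was not tested.

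Glial lists differed in their counts between the regions. All 17 microglia markers were called in the DG (median 0.94, with or without ECL replicate 5 all 17), against 3 in CA3 (median 0.46), and 11 of 15 reactive astrocyte genes were called there against 1. Complement genes had 9 of 9 called in the DG and a median of 1.25, against 2 of 9 and 0.70 in CA3. The DG had more libraries, and 15% of all its genes were called higher, against 3.65% in CA3. These differences were tested only gene by gene, by the interaction below, where 0 of 8372 genes were called by region.

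For single genes the values stood as follows. Eif5a had a mean of 2253 ± 90.7 (SD, n = 2) in wildtype CA3 control and 6098 ± 1119 (SD, n = 3) after ECL, 2291 ± 430.0 (SD, n = 4) and 4261 ± 1655 (SD, n = 7) in the DG, and 3934 ± 992 and 4063 ± 754 (SD, n = 6 each) in CA3 labelled Synpo-/-, each on the scale of its own comparison. Its log2 fold changes were 1.44 ± 0.16, 0.90 ± 0.24 and 0.05 ± 0.16 (SE), and the DG value without ECL replicate 5 was 0.69 ± 0.17. Pfn1 lay above 0 in each comparison, with 1.91 ± 0.18, 1.19 ± 0.37 and 0.77 ± 0.30 (SE). Fxyd6 rose in the DG (0.72 ± 0.20, SE) and was at -0.10 ± 0.15 in CA3 labelled Synpo-/- (SE), where it was not called. Spink8 was at 0.57 ± 0.81 in the DG and at -1.17 ± 0.32 (SE) without ECL replicate 5, and Spef2 was at 0.22 ± 0.15 with that library.

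The difference between the lesion effects was tested by interaction in edgeR. By genotype, where the header word of the count columns ran in opposite directions and cannot be told apart from the interaction, 0 of 8192 genes were called (0%), with 4589 of 26821 genes at an unadjusted p under 0.05, a smallest adjusted p of 0.0829, and 174 calls by DESeq2. Of the 294 genes called higher, 207 had an unadjusted p under 0.05 in this interaction, and since the wildtype CA3 libraries that made the list enter it again, this count is not independent. The smallest p belonged to Rhbdd2 (difference of log2 fold changes 1.44 ± 0.24, SE, adjusted p = 0.0829, edgeR), and Fxyd6 (1.62 ± 0.30, SE) and Eif5a (1.43 ± 0.31, SE) had adjusted p of 0.102 and 0.117. By region, 0 of 8372 genes were called (0%), with 1240 of 27783 genes at an unadjusted p under 0.05, a smallest adjusted p of 0.509, and 3 calls by DESeq2. Without the library labelled DG ECL replicate 5 there were 3 calls by region in edgeR. Spef2 had the smallest p of the genes named above by region (difference of log2 fold changes -1.34 ± 0.26, SE, adjusted p = 0.528, edgeR), and Synpo differed by 0.37 ± 0.18 by genotype and 0.04 ± 0.24 by region (SE). A p that missed the threshold in these interactions does not show that the responses were equal.

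**Figure D5:**
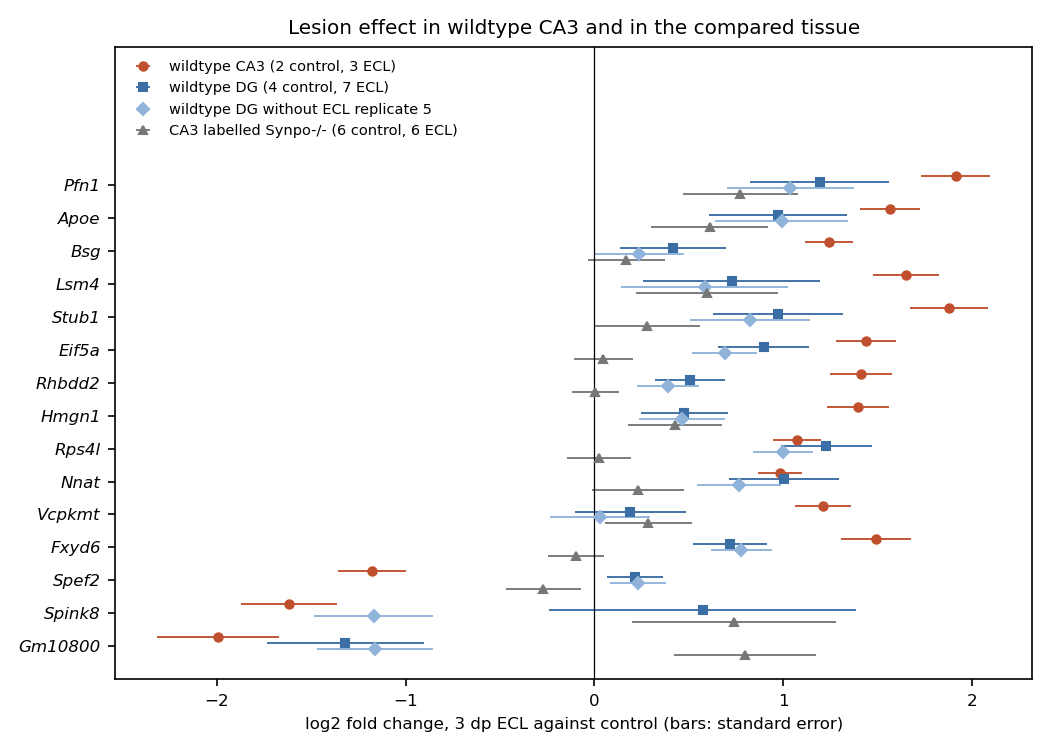
Log2 fold change of 3 dp ECL against control with its standard error (horizontal axis) for the 12 genes called higher with the smallest p and for Spef2, Spink8 and Gm10800, in wildtype CA3 (circles), wildtype DG with (squares) and without (diamonds) the library labelled ECL replicate 5, and CA3 labelled Synpo-/- (triangles). The circles of the 12 genes lie between 0.98 and 1.91, and the triangles of all 12 lie to their left, where the 12 genes were chosen by their values in wildtype CA3.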

How the data were processed

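Counts of 5 wildtype CA3 libraries (2 control, 3 ECL), of 11 wildtype DG libraries and of 12 CA3 libraries labelled Synpo-/- were used. The authors trimmed with cutadapt 3.5, aligned to mm10 with STAR 2.7.8a and counted reads over GENCODE exons with featureCounts 2.0.1, ignoring strand (versions per the submitters' processing notes). The deposited tables hold raw counts for 55291 gene symbols, of which 107 stand for several genes. Without strand, overlapping antisense genes cannot be told apart, nor can near-identical copies. Reads carried no molecular identifiers, so errors were taken from the replicates and not from counting. Each library came from 1 culture, and no pair of libraries in a wildtype CA3 group agreed within sampling noise.

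Groups came from the labels. Genes were tested by edgeR 4.0.16 in R 4.3.3 (TMM, filterByExpr, quasi-likelihood, Benjamini-Hochberg over all genes tested). A call needed an adjusted p below 0.05 together with a mean normalised count above 300. A normalised count is the count scaled by TMM library size, with the geometric mean over libraries as the unit. Alternatives were DESeq2 1.42.0, voom (limma 3.58.1), other scalings, filters and limits, removal of length and GC trends (lowess, span 0.3), a replicate block, wider fits, thinning, a sex covariate, and leaving out each library. In simulated data of 21287 genes for the lesion effect in wildtype CA3, with 200 changed 4-fold, edgeR recovered 171 (85.5%) with 6 false calls. Only genes above the limit of 300 can be called, so 21287 is not the number open to a false call. Every real rise called was smaller than 4-fold, the largest being 3.765-fold (Pfn1). Recovery of changes of the size of these rises was not tested.

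Genes named were the 12 called higher with the smallest p, all called lower, the 8 largest changes of each direction, genes printed in the study's displays of wildtype CA3, Synpo, and up to 5 members of each list with the smallest p. The members and lists were chosen with earlier results of these data known. One gene of the rule is not reported here. Gene positions are those of the authors' deposited GRCm38 annotation, and sequences come from RefSeq (GRCm38.p6).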

Additional observations from a re-analysis of the deposited data

Results flagged for a closer look

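In groups of 4 to 10 libraries, the gap of the highest or lowest library to its neighbour was compared with Dixon's 95% critical value in 36 group values of the wildtype DG and of CA3 labelled Synpo-/-, and 7 exceeded it, where chance gives about 1 in 20. The wildtype CA3 groups, with 2 and 3 libraries, were too small for this check. Of the 7 values, 3 belonged to the library labelled wildtype DG ECL replicate 5. Its CA3 markers summed to 1991 CPM against 724 to 877 in the other 6 DG ECL libraries, its dentate markers to 157 CPM against 1028 to 1284, and it had 631 normalised counts of Spink8 against 21.0 to 76.0. In CA3 labelled Synpo-/-, control replicate 1 had 364 CPM of dentate markers against 159 to 202 in the others, control replicate 5 had 1786 normalised counts of Spink8 against 230.4 to 552, ECL replicate 6 had 1.77% of its counts in the 8 repeat-derived models against 0.297% to 0.686%, and ECL replicate 1 had 1376 normalised counts of Fxyd6 against 789 to 1003.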

How the results depend on the processing

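All 306 calls in wildtype CA3 kept their direction in the alternatives tried, which is little support for genes without overlap between the groups. The number of calls moved. Against 306 calls, DESeq2 made 850, no filter on low counts 1522, RLE size factors 193, a limit of 1000 on the mean normalized count 161, the removal of the length trend 69 and of length and GC trends 54, and the sex call as a covariate 964. One fit over all 4 CA3 groups made 1 call and one over all 4 wildtype regional groups 0 (5486 genes at an unadjusted p under 0.05), and the cause was not tested. Leaving out 1 library gave 0 to 473 calls. Replicate numbers were shared between the groups. Same-numbered control and ECL libraries had Pearson correlations of 0.970 and 0.970 over 8060 genes. Between control replicate 2 and ECL replicate 1 the value was 0.969, and between control replicate 1 and ECL replicate 2 it was 0.965. These values cannot decide whether the numbers pair the libraries, and no pairing was assumed. The replicate block gave 649 calls, where ECL replicate 3 had no control of its number and did not enter the lesion effect. By genotype, DESeq2 made 174 calls, no filter 104 and the replicate block 14 against 0, and by region DESeq2 made 3, no filter 1 and the replicate block 14 against 0, with 0 to 3 calls without 1 library. Fits without the library labelled wildtype DG ECL replicate 5 in the DG alone were added after the data were seen. Without the limit of 300 there were 397 calls, so the limit and not the depth kept out part of the genes with lower counts.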

Other observations

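Gene families that the lists above did not cover were gathered after the values were seen, so their counts carry no test, and they stand beside the 3.65% of all genes called higher. Of 6 prohibitin, stomatin-like and flotillin genes, which encode related scaffold proteins of mitochondrial and plasma membranes, 5 were called higher after ECL in wildtype CA3 (median log2 fold change 0.80, against 0.17 for all genes). Phb2 had a log2 fold change of 1.00, Phb and Flot2 0.81, Flot1 0.79 and Stoml2 0.75. Of 4 coronins, which regulate actin turnover, 2 were called, Coro1a (0.86) and Coro1b (0.92). Of 9 subunits of the endoplasmic reticulum membrane protein complex, which inserts membrane proteins, 3 were called, and Emc6 had the largest value (1.56), followed by Emc10 (0.77) and Emc8 (0.67). Among 6 genes of the APP and Itm2 families of cleaved membrane proteins 3 were called, Itm2b (0.78), Itm2c (0.70) and Aplp2 (0.60).

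Of 11 subunits of the serine/threonine phosphatases PP1, PP2A, PP4, PP5 and PP6, 4 were called, Ppp4c (1.14), Ppp1ca (0.97), Ppp5c (0.88) and Ppp2r1a (0.65), whereas the median of the family was 0.06. Sorting nexins had 3 of 21 called and ESCRT genes, which bud membranes into endosomes, 3 of 20. Of 20 translocases of the mitochondrial membranes 1 was called, and of 119 Smim and Tmem genes 8. With the length trend removed, 0 of the prohibitin, stomatin-like and flotillin genes, of the coronins, of the endoplasmic reticulum membrane protein complex, of the APP and Itm2 families and of the ESCRT genes were called higher, and 1 each of the phosphatase subunits and sorting nexins was.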
